A study of Mus musculus with 6 samples.

Results

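The genes described here encode 9 enzymes and enzyme subunits of the tricarboxylic acid (TCA) cycle, chosen by name with earlier results of these data known: Cs, Idh3a, Idh3b, Idh3g, Ogdh, Dlst, Suclg1, Fh1 and Mdh2. All 17 probe sets that the platform annotation paired with one of these genes alone were taken, of 20380 probe sets with 1 gene and 12393 genes in the whole series. The arrays were of the type Affymetrix Mouse Genome 430A 2.0, and the tissue was whole liver of male wild-type C57Bl/6 mice. There were 6 arrays, 2 from mice that received recombinant FGF19, 2 from mice that received purified FGF15 and 2 from mice that received vehicle. Each injection went into the jugular vein, and livers were taken 6 h later from mice kept without food in between. All groups share that fast. The sources used here give neither the age of the mice, nor the doses, nor what the vehicle held. Whether each array had a mouse of its own is not stated, so the p-values speak for the spread of these arrays, and that spread may be technical.

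The TCA cycle runs in the mitochondrial matrix. It oxidises the acetyl groups that come from pyruvate, fatty acids and amino acids, and passes the electrons to the respiratory chain. In liver the cycle also supplies carbon for glucose, fatty acid and amino acid synthesis. FGF15 and its human orthologue FGF19 are gut hormones that act on hepatocytes through FGFR4 and β-Klotho and repress bile acid synthesis. The comparisons ask which of these transcripts differ from vehicle after either hormone, and whether the hormones differ.

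As a check of hormone action, Cyp7a1, which starts the classic route of bile acid synthesis, had signals of 38.2 and 32.1 with FGF19, 91.5 and 89.4 with FGF15 and 2677 and 2572 with vehicle. The hepatocyte genes Alb, Apoa1, Ttr and Cps1 had signals between 6159 and 14544 on every array. FGF19 replicate 1 stood apart in its control probe sets. Its 3' to 5' ratio for β-actin, which rises as RNA degrades, was 1.63, and that for pyruvate carboxylase was 3.38. The other 5 arrays had 1.30 to 1.39 and 2.27 to 2.73. Median signals were 50.8 and 52.2 with FGF19, 55.2 and 51.3 with FGF15 and 61.4 and 59.4 with vehicle, although the deposited values of all arrays had one trimmed mean of 200.1. Centring each array on its median therefore adds 0.15 to every log2 difference of FGF19 from vehicle and 0.12 to every one of FGF15, and changes of that size depend on the scaling chosen.

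Of the 9 genes, Idh3a fell and Idh3b rose with FGF19, and Idh3a alone fell with FGF15. These 2 genes and Idh3g encode the subunits of the NAD-dependent isocitrate dehydrogenase (IDH3), which makes 2-oxoglutarate from isocitrate. With FGF19, 1 of the 9 rose and 1 fell, where 6.27% of all 9692 genes tested rose and 7.26% fell (13.5% in either direction). With FGF15, 0 of the 9 rose and 1 fell, where 5.87% of all genes rose and 6.64% fell (12.5% in either direction). For 9 genes those shares come to under 1 call in each direction, and the members' counts differ from that by less than 1 gene. At an unadjusted limma p under 0.05 there were 4 of the 9 with FGF19 (Idh3b and Idh3g higher, Idh3a and Cs lower), where 28.1% of all genes were, and 5 with FGF15 (Idh3b, Idh3g and Fh1 higher, Idh3a and Dlst lower), where 26.1% of all genes were. With arrays centred on their medians, 1216 genes were called higher and 330 lower with FGF19, against 608 and 704 in the deposited scaling, and 1006 and 357 with FGF15, against 569 and 644. In whole liver, fewer cells of a type and less RNA per cell cannot be told apart. A gene is said to rise or fall at an adjusted p under 0.05 in limma, adjusted over all genes, on log2(signal + 32), and each gene stands for its probe set of highest mean.

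**Figure D1:**
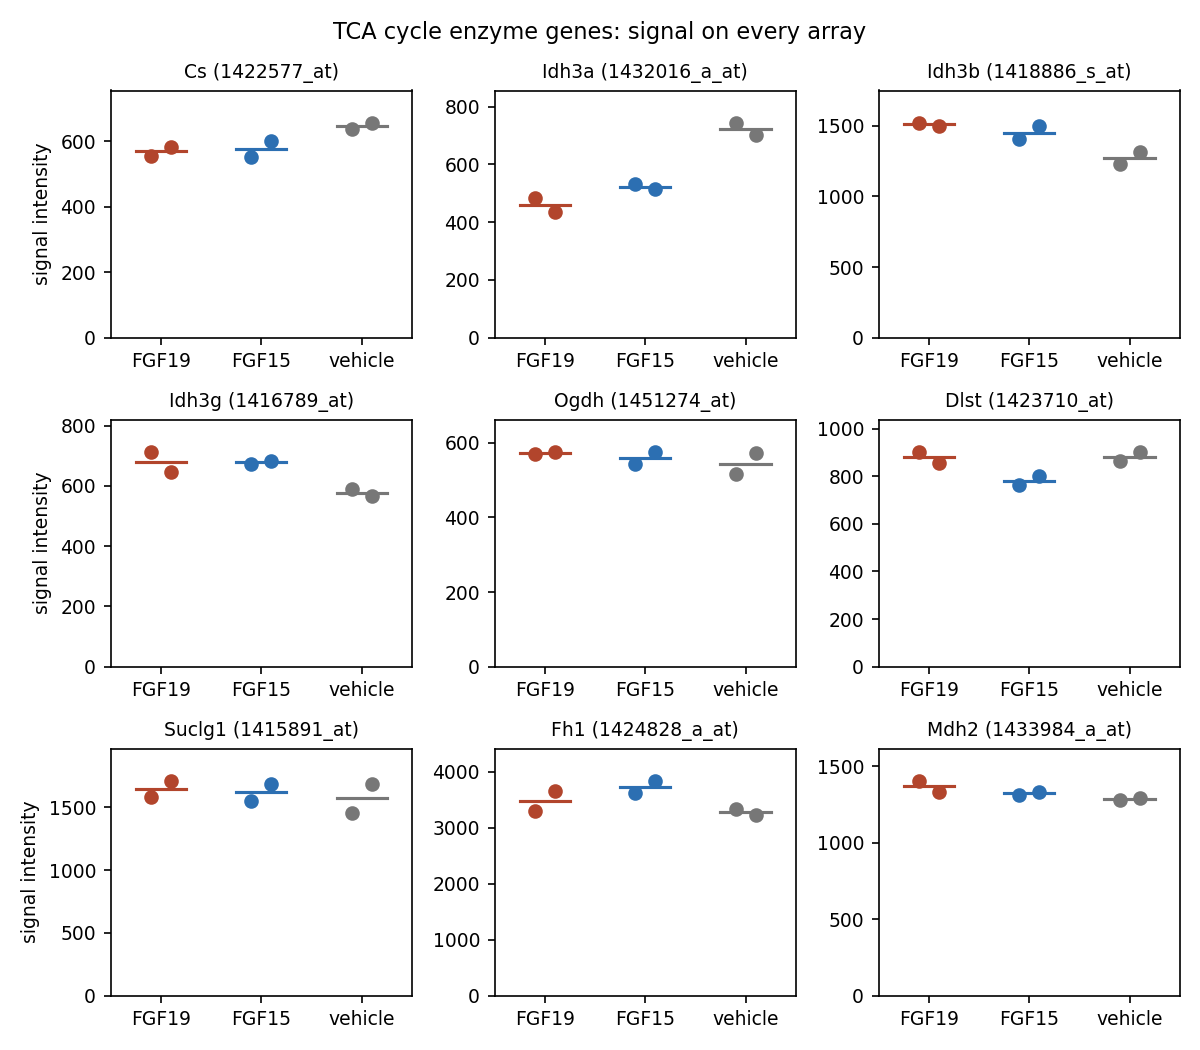
Signal intensity (linear, from 0) of the probe set that represents each of the 9 genes, with 1 point per array and a line at the mean of the 2 arrays of the FGF19, FGF15 and vehicle groups. The vehicle arrays of Idh3a and Cs lie above all 4 hormone arrays, and those of Idh3b, Idh3g and Mdh2 lie below them.

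Idh3a, the catalytic α subunit of IDH3, fell after both hormones. On its brightest probe set, which represents the gene, it had signals of 484 and 437 with FGF19, 531 and 514 with FGF15 and 745 and 703 with vehicle. All 4 hormone arrays were lower than both vehicle arrays, with no overlap, and both FGF19 arrays were lower than both FGF15 arrays. The mean signal was 461 ± 33.3 with FGF19, 523 ± 12.0 with FGF15 and 724 ± 29.1 with vehicle (SD, n = 2 each). On the log2 scale its change from vehicle was -0.62 ± 0.08 with FGF19 (SE, limma adjusted p = 0.000558), 1.54-fold lower in signal + 32. It was -0.45 ± 0.08 with FGF15 (limma adjusted p = 0.00412), 1.36-fold lower. Without FGF19 replicate 1 the change with FGF19 was -0.69 (limma adjusted p = 0.00198). The fall with FGF15 lost its call when all probe sets of the gene were averaged (-0.36, limma adjusted p = 0.0516).

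The other 2 probe sets of Idh3a were dim, and their values had the same direction. The next one read 32.5 and 35.4 with FGF19, 24.5 and 49.2 with FGF15 and 59.9 and 55.4 with vehicle. All hormone arrays were again below both vehicle arrays, but the FGF15 arrays differed from each other by more than the group means did. Its log2 change was -0.44 ± 0.19 with FGF19 and -0.40 ± 0.19 with FGF15, neither of which passed among all probe sets (limma adjusted p = 0.172 and adjusted p = 0.226). The last, with the suffix _s_at for probes that can bind related transcripts, had log2 values of -0.16 ± 0.16 with FGF19 and -0.24 ± 0.16 with FGF15 and did not pass either. Of the 17 probe sets of the members, 1 was called with each hormone, the brightest of Idh3a, where 11.5% of 16983 probe sets were called with FGF19 and 10.5% with FGF15.

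Idh3b encodes the β subunit, which pairs with the catalytic α subunit in the enzyme. On its brighter probe set, also of the type _s_at, it had signals of 1522 and 1501 with FGF19, 1408 and 1496 with FGF15 and 1232 and 1317 with vehicle. All hormone arrays lay above both vehicle arrays. The log2 change was 0.24 ± 0.07 with FGF19 (limma adjusted p = 0.0391), 1.18-fold higher, and 0.18 ± 0.07 with FGF15, which did not pass (limma adjusted p = 0.107). Adjusted over all probe sets instead of genes, the value with FGF19 missed the threshold (limma adjusted p = 0.0503). The call with FGF19 also ended without either vehicle array (limma adjusted p = 0.257 and 0.0888) and without either FGF19 array (limma adjusted p = 0.11 and 0.0819).

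The other Idh3b probe set gave another picture. It has the suffix _a_at, for probes shared by several transcripts of a gene, and read 772 and 760.4 with FGF19, 761 and 787 with FGF15 and 784 and 761 with vehicle. The groups overlapped, and the log2 change was -0.01 ± 0.07 with FGF19 (95% interval -0.16 to 0.14) and 0.00 ± 0.07 with FGF15 (95% interval -0.15 to 0.15). The rise of Idh3b was therefore seen on 1 of its 2 probe sets, the one that can bind related transcripts.

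Idh3g encodes the γ subunit, which takes part in the allosteric control of the enzyme. It did not pass against vehicle, but its probe sets gave values close to each other. The brighter probe set, which represents the gene, read 713 and 646 with FGF19, 674 and 684 with FGF15 and 589 and 566 with vehicle. The other read 562 and 541 with FGF19, 532 and 538 with FGF15 and 452 and 464 with vehicle. On both, all hormone arrays lay above both vehicle arrays. The log2 change of the gene was 0.22 ± 0.07 with FGF19 (limma adjusted p = 0.0736, 95% interval 0.06 to 0.38) and 0.22 ± 0.07 with FGF15 (limma adjusted p = 0.0789, 95% interval 0.06 to 0.38). On the other probe set it was 0.25 ± 0.07 and 0.21 ± 0.07 (limma adjusted p = 0.0502 and adjusted p = 0.0957 over all probe sets). Idh3g was called with FGF19 in 2 of the 17 alternatives and with FGF15 in 1. With arrays centred on their medians it passed with FGF19 (0.37, limma adjusted p = 0.0119) and with FGF15 (0.34, limma adjusted p = 0.0204). With each gene's probe sets averaged it passed with FGF19 (0.24, limma adjusted p = 0.0362), whereas Idh3b in that fit had 0.12 with FGF19 and was not called (limma adjusted p = 0.22).

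**Figure D2:**
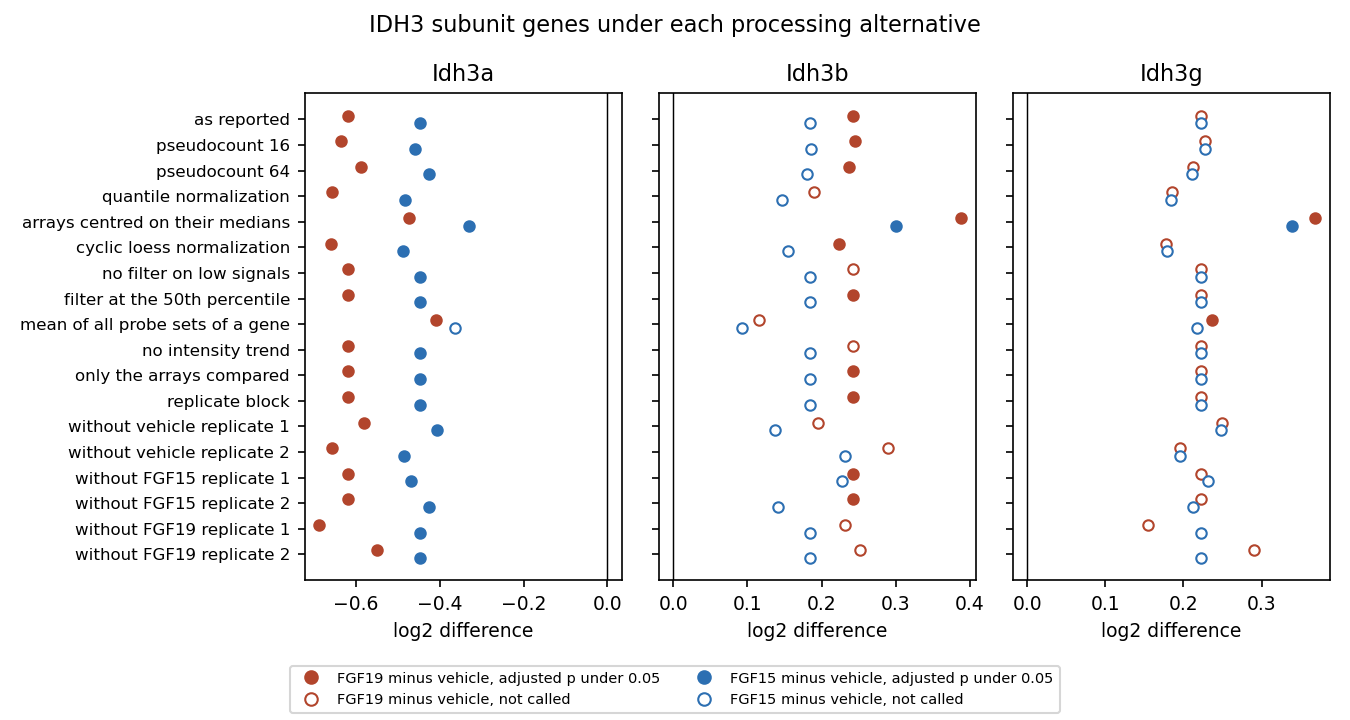
Log2 difference from vehicle (x axis) of the 3 IDH3 subunit genes as reported and under each of 17 processing alternatives (rows), red for FGF19 and blue for FGF15, with filled points at an adjusted p under 0.05 in limma. Idh3a is filled in every row with FGF19 and in all but the mean of its probe sets with FGF15, whereas Idh3b with FGF19 is filled in 9 of the 17 alternatives.

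**Figure D3:**
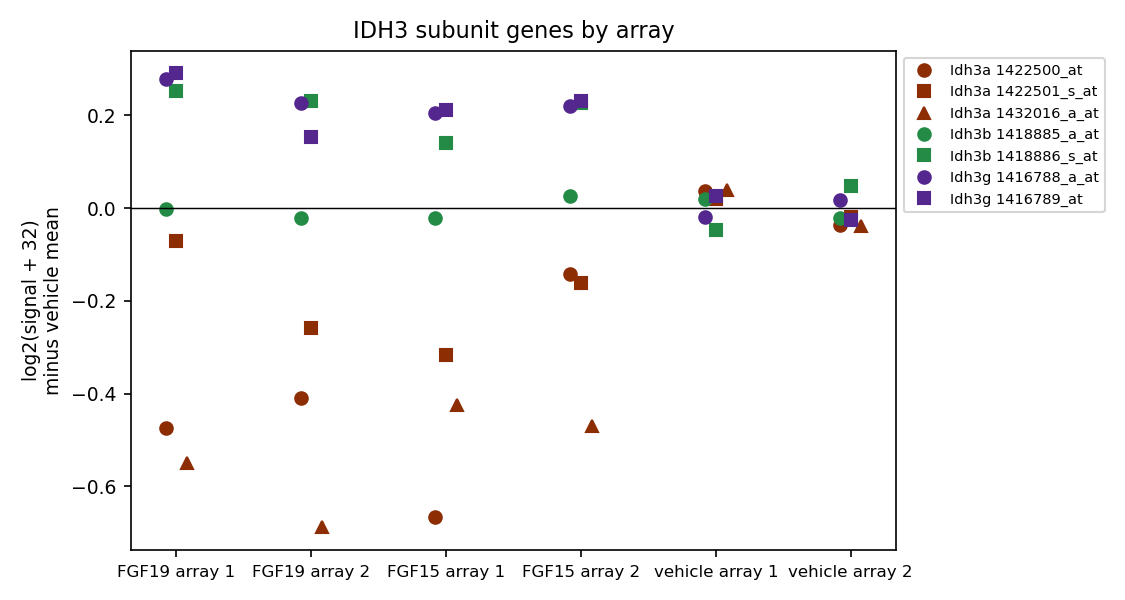
Difference of log2(signal + 32) on each array (x axis) from the mean of the vehicle arrays, for the 7 probe sets of the IDH3 subunit genes, with brown for Idh3a, green for Idh3b and purple for Idh3g. On the 4 hormone arrays every Idh3a probe set lies below 0 and every Idh3g probe set above it, while the Idh3b probe sets are apart from each other.

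A difference between genes within an array does not depend on how the arrays were scaled against each other, apart from the offset. The log2 value of Idh3a minus that of Idh3g, each on its brightest probe set, was -0.53 and -0.53 with FGF19, -0.33 and -0.39 with FGF15 and 0.32 and 0.30 with vehicle. The arrays of a group were close together and the 3 groups did not overlap. As a share of the mean vehicle ratio, the ratio of Idh3a to Idh3g was 55.8% and 55.8% with FGF19, 64.3% and 61.5% with FGF15 and 101% and 99.1% with vehicle. The pair was chosen after its members were seen to lie on opposite sides of vehicle, so these values restate the signals above on a scale free of array scaling and are given with no test.

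The upstream windows of Idh3b and Idh3g, the IDH3 subunit genes with a window in the table, are shown to set them against each other. They are the 250 bases before the gene's start in RefSeq, build GRCm38.p6, read 5′ to 3′ on the gene's strand (chr2:130284452-130284701, minus strand for Idh3b, and chrX:73786898-73787147, minus strand for Idh3g). Capitals mark matches on either strand to GCGCNTGCG, the core bound by the mitochondrial regulator NRF1, to CCGGAAG, the core bound by GABP and other ETS factors, or to AAGGTCA, the core bound by estrogen-related receptors.
Idh3b: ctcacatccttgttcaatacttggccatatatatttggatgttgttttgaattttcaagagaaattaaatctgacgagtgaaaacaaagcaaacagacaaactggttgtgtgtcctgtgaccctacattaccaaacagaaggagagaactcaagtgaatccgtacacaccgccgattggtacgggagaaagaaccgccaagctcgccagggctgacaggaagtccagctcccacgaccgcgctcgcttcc
Idh3g: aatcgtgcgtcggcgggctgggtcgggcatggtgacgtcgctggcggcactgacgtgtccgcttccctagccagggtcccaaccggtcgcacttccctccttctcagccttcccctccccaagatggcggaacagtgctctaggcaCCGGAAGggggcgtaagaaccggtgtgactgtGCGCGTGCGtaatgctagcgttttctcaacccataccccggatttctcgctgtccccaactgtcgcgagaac
The Idh3g window held 1 match to the NRF1 motif, which begins 72 bases before the start, and 1 to the GABP motif, which begins 104 bases before it, with no overlap, and no match to the receptor motif. The Idh3b window held no exact match to any of them. Only exact matches were counted, so related strings, such as CAGGAAG in the Idh3b window, were not marked. Over 32851 windows of that length in the table, 5.19% held the NRF1 motif, 6.91% the GABP motif and 4.08% the receptor motif. Windows were found for 8 of the 9 genes, all but Idh3a. Among the other members, Ogdh held the NRF1 motif in 2 of its 6 windows, which overlap and hold the same match, and Cs, Dlst, Suclg1, Fh1 and Mdh2 held no match to any of them. A match describes the letters of a window and not a bound site.

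Cs encodes citrate synthase, which joins acetyl-CoA to oxaloacetate at the entry of the cycle. On the brightest of its 3 probe sets it read 555 and 583 with FGF19, 553 and 601 with FGF15 and 637 and 656 with vehicle. Both hormone groups lay below vehicle without overlap, but the log2 changes of -0.17 ± 0.07 with FGF19 (95% interval -0.34 to -0.01) and -0.16 ± 0.07 with FGF15 (95% interval -0.32 to 0.01) did not pass (limma adjusted p = 0.148 and adjusted p = 0.205). The other probe sets gave log2 values of -0.05 ± 0.07 and -0.15 ± 0.10 with FGF19, and -0.06 ± 0.07 and 0.14 ± 0.10 with FGF15. The 3 probe sets of Cs were thus all below 0 with FGF19 and of either sign with FGF15.

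Ogdh and Dlst encode the oxidising and the succinyl-transferring component of the 2-oxoglutarate dehydrogenase complex. Ogdh read 569 and 575 with FGF19, 542 and 576 with FGF15 and 516 and 572 with vehicle. The groups overlapped, and the log2 change was 0.07 ± 0.08 with FGF19 (95% interval -0.10 to 0.24) and 0.04 ± 0.08 with FGF15 (95% interval -0.13 to 0.21). On its brighter probe set Dlst read 903 and 855 with FGF19, 762 and 800.5 with FGF15 and 863 and 902 with vehicle. Both FGF15 arrays lay below all 4 others. Its log2 change was -0.01 ± 0.07 with FGF19 and -0.17 ± 0.07 with FGF15 (limma adjusted p = 0.969 and adjusted p = 0.144). The dimmer probe set had the opposite sign, with 0.16 ± 0.15 and 0.29 ± 0.15, and did not pass (limma adjusted p = 0.527 and adjusted p = 0.264).

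The remaining members act from succinyl-CoA to oxaloacetate. Suclg1, the α subunit of succinyl-CoA ligase, read 1585 and 1711 with FGF19, 1554 and 1688 with FGF15 and 1456 and 1688 with vehicle. Its vehicle arrays were the farthest apart of any member's, and the log2 changes of 0.07 ± 0.08 and 0.05 ± 0.08 were smaller than their errors. Fh1, fumarate hydratase, read 3303 and 3661 with FGF19, 3625 and 3839 with FGF15 and 3338 and 3227 with vehicle. Both FGF15 arrays lay above both vehicle arrays, while an FGF19 array lay between the vehicle arrays. The log2 change of Fh1 was 0.08 ± 0.07 with FGF19 (limma adjusted p = 0.494) and 0.18 ± 0.07 with FGF15 (limma adjusted p = 0.138).

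With arrays centred on their medians Fh1 passed with FGF15 (0.30, limma adjusted p = 0.0371), as it did with quantile normalization (0.18, limma adjusted p = 0.0267). Mdh2, the mitochondrial malate dehydrogenase, closes the cycle. On its brighter probe set it read 1404 and 1329 with FGF19, 1310.4 and 1331 with FGF15 and 1279 and 1291 with vehicle, and the FGF19 and FGF15 arrays all lay above the vehicle arrays. Its log2 change was 0.09 ± 0.06 with FGF19 (95% interval -0.05 to 0.23) and 0.04 ± 0.06 with FGF15 (95% interval -0.10 to 0.18), the narrowest intervals of the 9 genes. Its other probe set gave -0.00094 ± 0.07 and -0.03 ± 0.07.

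**Figure D4:**
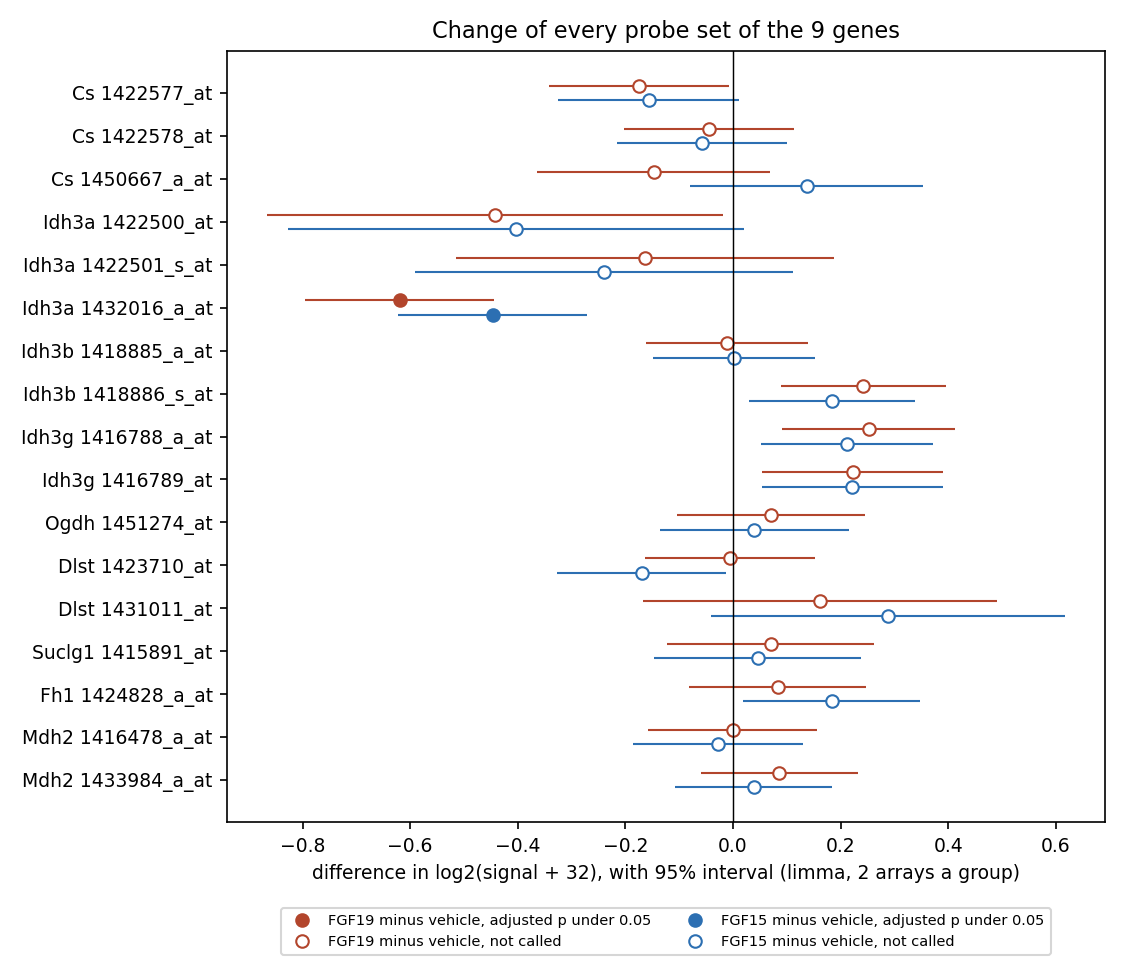
Log2 difference from vehicle with its 95% interval (limma, 2 arrays a group) for the 17 probe sets of the 9 genes, red for FGF19 and blue for FGF15, with filled points at an adjusted p under 0.05 over all probe sets. Only the brightest probe set of Idh3a is filled, and the probe sets of Idh3b and Dlst are apart.

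As a group, the 9 genes had a median log2 change of 0.07 with FGF19, against -0.07 over all genes, and 0.04 with FGF15, against -0.05. In each comparison 6 of the 9 values were above 0. With FGF19, 3 members lay wholly above vehicle and 2 wholly below, where 21.4% and 37.2% of all genes did. With FGF15, 4 lay wholly above and 3 wholly below, where 22.2% and 32.7% of all genes did. These comparisons share the vehicle arrays. The median SD of a member between arrays of a group was 0.06 on the log2 scale, against 0.12 over all genes.

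None of the 9 genes was called between the hormones, where 2.4% of all genes were higher and 1.89% lower with FGF19 by limma (4.29% in either direction). Of the 9, 2 lay wholly above FGF15 and 1 wholly below with FGF19, where 20.1% and 25.8% of all genes did. At an unadjusted limma p under 0.05 there were 2, Idh3a and Dlst, where 16.6% of all genes were. The largest difference was that of Idh3a, -0.17 ± 0.08 on the log2 scale (adjusted p = 0.293, 95% interval -0.34 to -0.0027), with both FGF19 arrays below both FGF15 arrays. Dlst differed by 0.16 ± 0.07 (adjusted p = 0.257, 95% interval 0.01 to 0.32), with both FGF19 arrays above both FGF15 arrays. The other 7 differences ran from -0.10 for Fh1 to 0.06 for Idh3b, and all of their intervals included 0. A p that misses the threshold does not show that the hormones act alike on these genes.

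Other genes of the cycle were read beside the members. Of 8 other genes of the cycle measured, 2 rose and 0 fell with FGF19, and 2 rose and 0 fell with FGF15. Over all genes, 6.27% rose and 7.26% fell with FGF19, and 5.87% rose and 6.64% fell with FGF15. These 8 genes all had values above 0 in both comparisons. Their medians were 0.17 and 0.16, against -0.07 and -0.05 over all genes. Sdha, the flavoprotein of succinate dehydrogenase, read 2683 and 3022 with FGF19, 3105 and 3181 with FGF15 and 2177 and 2429 with vehicle. Every hormone array was above both vehicle arrays, and the log2 change was 0.30 ± 0.08 with FGF19 (limma adjusted p = 0.0318) and 0.45 ± 0.08 with FGF15 (limma adjusted p = 0.00538). Suclg2, the GTP-specific β subunit that pairs with Suclg1, rose with FGF15 (0.35 ± 0.07, limma adjusted p = 0.0116), and its value with FGF19 was 0.25 ± 0.07 (limma adjusted p = 0.0514).

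Sdhd, a membrane anchor of succinate dehydrogenase, passed with FGF19 by a small margin (0.23 ± 0.07, limma adjusted p = 0.0496) and had 0.22 ± 0.07 with FGF15. Its call with FGF19 was lost in 10 of the 17 alternatives, the mean of its probe sets among them. Over the alternatives its log2 change ran from 0.02 to 0.37 with FGF19 and from 0.08 to 0.34 with FGF15. The call of Sdha with FGF19 was lost in 6, also with its probe sets averaged. The ATP-specific β subunit Sucla2 had 0.21 ± 0.06 and 0.09 ± 0.06 and did not pass. Over fits that left out 1 array, 0 to 2 of the list rose with FGF19 and 0 to 3 with FGF15. The number was 0 with both hormones without vehicle replicate 1, 0 with FGF19 without vehicle replicate 2 or FGF19 replicate 2, and 1 with FGF19 without FGF19 replicate 1. It was 1 with FGF15 without vehicle replicate 2 or FGF15 replicate 2.

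Pyruvate enters the cycle through the pyruvate carrier and the pyruvate dehydrogenase complex, which dedicated kinases inhibit. Pcx, pyruvate carboxylase, was also on the list of 8 measured genes. Its log2 change was 0.15 ± 0.07 with FGF19 and 0.17 ± 0.07 with FGF15, and it was not called. Of the 8 genes, 5 rose and 1 fell with FGF19, and 5 rose and 0 fell with FGF15. The shares of all genes were 6.27% higher and 7.26% lower with FGF19, and 5.87% and 6.64% with FGF15. For the 8 genes the median log2 change was 0.30 with FGF19 and 0.28 with FGF15. Pdha1, the catalytic α subunit of pyruvate dehydrogenase, read 972 and 983 with FGF19, 1058 and 1066 with FGF15 and 719 and 772 with vehicle. It rose with both hormones, by 0.38 ± 0.07 with FGF19 (limma adjusted p = 0.00441) and 0.49 ± 0.07 with FGF15 (limma adjusted p = 0.000978). Dlat, the acetyl-transferring component, rose by 0.51 ± 0.08 and 0.27 ± 0.08 on an _x_at probe set, which can bind related transcripts (limma adjusted p = 0.00173 and adjusted p = 0.0446). Its rise with FGF15 ended without any one of the 6 arrays.

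Pdhb, the β subunit, rose with FGF15 (0.28 ± 0.06, limma adjusted p = 0.0176) and had 0.13 ± 0.06 with FGF19. The carrier subunit Mpc1 rose by 0.31 ± 0.07 with FGF19 and 0.39 ± 0.07 with FGF15. Among the inhibitory kinases, Pdk1 rose by 0.30 ± 0.08 and 0.47 ± 0.08. Pdk2 fell with FGF19 (-0.47 ± 0.10, limma adjusted p = 0.01), and Pdk4, which read 123 and 104 with FGF19, 56.2 and 69.4 with FGF15 and 53.2 and 71.9 with vehicle, rose with FGF19 (0.63 ± 0.15, limma adjusted p = 0.024) and had 0.01 ± 0.15 with FGF15. The difference of Pdk4 between the hormones missed the threshold (0.62 ± 0.15, limma adjusted p = 0.0529). Without 1 array, 2 to 5 genes of the list rose with FGF19 and 2 to 4 with FGF15. The lowest numbers came without vehicle replicate 1 with FGF19, and without vehicle replicate 2 or FGF15 replicate 2 with FGF15. With FGF19, the rise of Pdk1 ended without any one of the vehicle or FGF19 arrays, that of Pdk4 without vehicle replicate 1 or either FGF19 array, and the fall of Pdk2 without either vehicle array or FGF19 replicate 1. The rise of Pdha1 with FGF19 ended without vehicle replicate 1, and that of Mpc1 without vehicle replicate 2 or the replicate 2 of the hormone in question. The rise of Pdhb with FGF15 ended without either vehicle array or FGF15 replicate 2. It also ended when its probe sets were averaged and without the intensity trend. The rises of Dlat with FGF19 and of Pdha1 and Pdk1 with FGF15 held under all 17 alternatives.

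**Figure D5:**
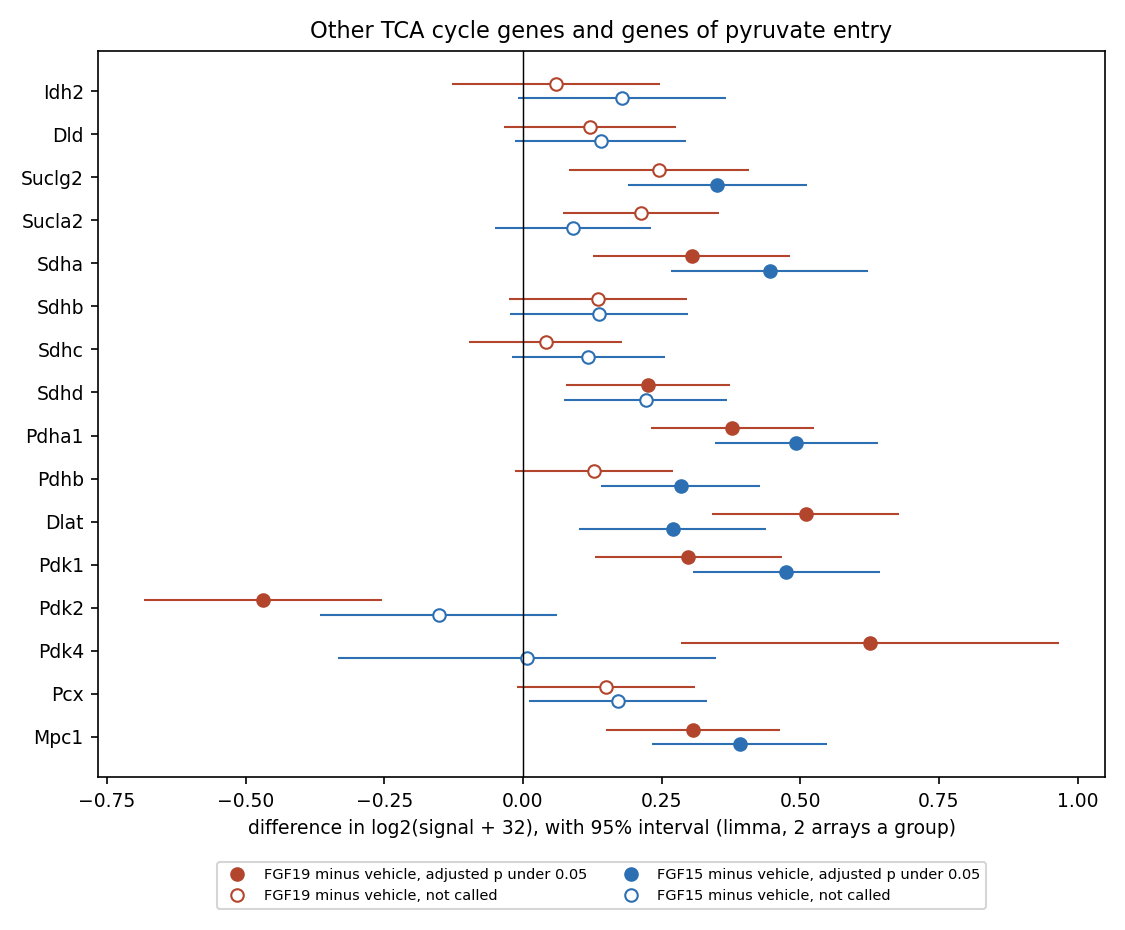
Log2 difference from vehicle with its 95% interval (limma, 2 arrays a group) for 8 other genes of the TCA cycle (Idh2 to Sdhd) and 8 genes of pyruvate entry (Pdha1 to Mpc1), red for FGF19 and blue for FGF15, with filled points at an adjusted p under 0.05 over all genes. Most points lie above 0, and Pdk2 is the one gene with a call below it.

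The respiratory chain takes up the electrons that the cycle releases, and ATP synthase uses the proton gradient it builds. Of 52 measured subunits, 7 rose and 0 fell with FGF19, and 6 rose and 0 fell with FGF15, with median log2 changes of 0.07 and 0.08. Among all genes, 6.27% rose and 7.26% fell with FGF19, and 5.87% rose and 6.64% fell with FGF15. Ndufa4, a small subunit of the chain, rose by 0.35 ± 0.06 with FGF19 and 0.43 ± 0.06 with FGF15, and Cox8a, a subunit of cytochrome c oxidase, by 0.31 ± 0.07 and 0.28 ± 0.07. Atp5c1, a subunit of ATP synthase, rose by 0.37 ± 0.07 and 0.26 ± 0.07, and Ndufa2 by 0.31 ± 0.07 and 0.28 ± 0.07. The rise of Atp5c1 with FGF15 (limma adjusted p = 0.0476) lost its call in 9 of the 17 alternatives. Over them its log2 change with FGF15 ran from -0.18 to 0.38. Its rise with FGF19 lost its call in 4, and those of Ndufa2 in 4 with FGF19 and 5 with FGF15. The rise of Ndufa4 with FGF19 ended without vehicle replicate 2 and without the intensity trend, and both rises of Cox8a ended without either vehicle array. Both rises of Cox8a also ended when its probe sets were averaged and without the intensity trend. That with FGF19 ended without FGF19 replicate 1, and that with FGF15 without either FGF15 array. Over the alternatives the log2 change of Cox8a was as low as 0.12 with FGF19 and 0.18 with FGF15. With arrays centred on their medians 17 rose with FGF19 and 10 with FGF15, and over fits without 1 array the numbers were 1 to 8 and 1 to 7, with 1 in both comparisons without either vehicle array. Without FGF19 replicate 2, which leaves the FGF19 array with the high β-actin ratio, 4 subunits fell with FGF19. In arrays centred on their medians, 1216 of all 9692 genes were called higher with FGF19 and 1006 with FGF15. Whether the members differ from the subunits of the chain was not tested.

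Of 13 regulators of mitochondrial genes, 1 rose and 3 fell with FGF19, and 0 rose and 2 fell with FGF15. The shares of all genes were 6.27% higher and 7.26% lower with FGF19, and 5.87% and 6.64% with FGF15. The coactivator Ppargc1a read 111 and 131 with FGF19, 31.0 and 29.7 with FGF15 and 204 and 198 with vehicle. It fell with both, with log2 changes of -0.61 ± 0.12 with FGF19 and -1.90 ± 0.12 with FGF15 (limma adjusted p = 0.00867 and adjusted p = 8.3e-06), and the difference between the hormones passed too (1.29 ± 0.12, limma adjusted p = 0.000223). The 4 hormone arrays were below both vehicle arrays, and the FGF15 arrays were the lowest. The fall of Ppargc1a with FGF19 lost its call without either vehicle array and without FGF19 replicate 1, with a highest limma adjusted p of 0.079 over the alternatives. The related coactivator Ppargc1b fell with both (-1.19 ± 0.16 and -0.99 ± 0.16), Esrra, an estrogen-related receptor, fell with FGF19 (-0.67 ± 0.14, limma adjusted p = 0.0133) and had -0.45 ± 0.14 with FGF15, and the coactivator Pprc1 rose with FGF19 (0.39 ± 0.11, limma adjusted p = 0.0411). With FGF19 the regulators that fell numbered 1 without vehicle replicate 2 and 1 without FGF19 replicate 1, the fall of Esrra with FGF19 ended without vehicle replicate 2 or either FGF19 array, and the rise of Pprc1 ended without any one of the vehicle or FGF19 arrays.

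Markers of other cells of the liver moved in the same samples. Of 11 Kupffer cell and macrophage markers, 9 fell with FGF19 and 10 with FGF15, and none rose. Among all genes, 7.26% fell with FGF19 and 6.64% with FGF15. The summed signal of the 11 markers was 3534 and 3499 with FGF19, 3484 and 3608 with FGF15 and 6525 and 6427 with vehicle. Of 7 hepatocyte markers, 0 fell with FGF19 and 1 with FGF15 and none rose, with summed signals of 55617 and 72106 with FGF19, 63785 and 68808 with FGF15 and 76484 and 75540.3 with vehicle. The lowest of these sums was that of FGF19 replicate 1, and without FGF19 replicate 2 the hepatocyte markers that fell with FGF19 numbered 6. Without either FGF19 array, 4 fell with FGF15. The part of cell composition or RNA quality in the changes of IDH3 subunit genes was not tested.

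The numbers that fell with FGF19 and with FGF15 were 1 and 2 of 3 neutrophil markers and 0 and 1 of 6 endothelial markers. They were 2 and 3 of 6 stellate cell markers, 0 and 0 of 3 bile duct markers and 0 and 0 of 1 muscle markers. For adipose markers they were 0 and 1 of 1, and for pancreas markers 1 and 0 of 2. Among all genes, 7.26% fell with FGF19 and 6.64% with FGF15. None of these markers was called higher. The neutrophil marker S100a9 fell with FGF15 but lay above both vehicle arrays with FGF19, with 176 and 197 against 169 and 169. The stellate cell marker Lrat went the other way with FGF15, with 82.0 and 81.3 against 46.7 and 52.4 with vehicle. Its log2 change with FGF15 was 0.48 ± 0.14 (limma adjusted p = 0.0544), and it was called in 7 of the 17 alternatives. It was the 1 stellate cell marker above 0 with FGF15, and 0 were with FGF19.

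The mean of the 9 genes, each centred on its own mean, stayed between -0.03 and 0.03 on the log2 scale on all 6 arrays. The 2 FGF15 arrays alone lay at -0.03 and 0.03. The members themselves had Pearson's r with this mean from -0.07 for Idh3g to 0.71 for Ogdh, with 0.02 for Idh3a. Likeness to the mean is therefore not likeness to each member. The genes whose values followed this mean most closely were Psmc3, Isoc2b, Zfp84, Spag7 and Skiv2l, with Pearson's r of 0.946 to 0.985 over 6 arrays. They were picked as the closest of all other genes tested, and the points share the scaling of their array, so this is a description of likeness with no test.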

How the data were processed

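Liver RNA of 6 mouse arrays (2 per group) was measured on the Affymetrix Mouse Genome 430A 2.0 array, and groups were taken from the labels. The deposited values were linear signal intensities, 1 per probe set, with a 2% trimmed mean of 200.1 on every array. The summarising software is not given in the sources used here. Of 22690 probe sets, 64 controls were left out of the tests, 20380 had 1 gene, 691 several and 1555 none, and 20351 were named through their Entrez number. Each of 12393 genes was represented by its probe set of highest mean on log2(signal + 32), and genes under the 25th percentile of the mean were dropped, which left 9692, all 9 members among them. Linear models with the group as the only term were fitted to all 6 arrays in limma 3.58.1 (R 4.3.3), with eBayes and its trend option, and p-values were adjusted by Benjamini-Hochberg over all genes, or over 16983 probe sets for single probe sets. Errors are standard errors of the fit unless called SD. The procedure was tested on simulated data. The alternatives were other pseudocounts, normalizations, filters, gene summaries and fits, and each array left out in turn. All members and their probe sets were named, with up to 4 genes of smallest p from each other list, those of the cycle and pyruvate lists that passed, and the 5 genes most like the members' mean. The members and lists were chosen with earlier results of these data known. Promoter windows came from RefSeq (GRCm38.p6). Python 3.11.15 with matplotlib 3.10.9 drew the figures.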

Additional observations from a re-analysis of the deposited data

How the results depend on the processing

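With 17 alternatives and 27 values (9 genes in 3 comparisons), no value that passed changed sign, 9 calls were lost and 8 were gained. The members lower with FGF19 numbered 1 under every alternative, and those lower with FGF15 numbered 1 except after averaging each gene's probe sets, which left 0. The members higher with FGF19, 1 as reported, numbered 2 with arrays centred on their medians, 0 with quantile normalization, 0 without a filter on low signals, 0 without the intensity trend and 0 to 1 without 1 array. With probe sets averaged the number was also 1, but the gene was Idh3g in place of Idh3b. The count was 0 without either vehicle array and without either FGF19 array. The members higher with FGF15, 0 as reported, numbered 3 with arrays centred on their medians, 1 with quantile normalization, 1 with cyclic loess and 0 to 1 without 1 array, with the 1 (Fh1) without FGF19 replicate 1. Among all 9692 genes, centring on medians took the calls higher from 608 to 1216 with FGF19 and from 569 to 1006 with FGF15. With quantile normalization 654 of 9689 genes were higher with FGF19 and 620 with FGF15, and with cyclic loess 657 and 588 of 9692. The members' median log2 change was 0.22 with FGF19 and 0.16 with FGF15 in centred arrays. Without 1 array it was 0.000392 (lowest) to 0.0923 (highest) with FGF19 and -0.0307 to 0.110 with FGF15, the lowest without vehicle replicate 1 in both. Between the hormones 0 members were called under every alternative. Over all genes, 733 were called with FGF19, 637 with FGF15 and 163 between the hormones without the intensity trend, against 1312, 1213 and 416 with it, and without 1 array they numbered 614 to 1370, 554 to 1192 and 235 to 341. The labels do not say whether the replicate numbers pair the arrays. Deviations of same-numbered arrays over all genes tested correlated at 0.05 (FGF19 with FGF15), -0.02 (FGF19 with vehicle) and 0.08 (FGF15 with vehicle). With 2 arrays per group, these values cannot settle whether arrays were paired. With the replicate block the members' counts were those reported, with median log2 changes of 0.07 with FGF19 and 0.04 with FGF15, and 1380, 1246 and 450 genes were called. The small number of arrays limits precision, and the cause of the changes between settings was not tested.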

Other observations

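Cycle intermediates leave and re-enter the mitochondrion through carriers and are used by enzymes of the cytosol. Of 14 such genes tested, 5 rose and 1 fell with FGF19, and 5 rose and 1 fell with FGF15, with median log2 changes of 0.16 and 0.18. Among all genes, 6.27% rose and 7.26% fell with FGF19, and 5.87% rose and 6.64% fell with FGF15. Over fits without 1 array, 3 to 6 rose with FGF19 and 2 to 6 with FGF15. The fewest rose with FGF19 without either vehicle array, and with FGF15 without vehicle replicate 2 or FGF15 replicate 2. Me1, the malic enzyme that makes NADPH from malate in the cytosol, read 2538 and 2861 with FGF19, 2533 and 2418 with FGF15 and 1283 and 1212 with vehicle. It rose by 1.09 ± 0.07 with FGF19 and 0.97 ± 0.07 with FGF15 on the log2 scale (limma adjusted p = 1.2e-05 and adjusted p = 2.8e-05), with all hormone arrays above both vehicle arrays, and both calls held under all 17 alternatives. Acly, which splits citrate into acetyl-CoA and oxaloacetate, read 2651 and 2737 with FGF19, 3419 and 3484 with FGF15 and 2235 and 2208 with vehicle. Its rise was smaller with FGF19 (0.27 ± 0.06, limma adjusted p = 0.0152) than with FGF15 (0.63 ± 0.06, limma adjusted p = 0.000147), and the difference of -0.35 ± 0.06 passed (limma adjusted p = 0.00844) but lost its call without either FGF15 array. The rise of Acly with FGF19 lost its call without either vehicle array. With probe sets averaged, and also without the intensity trend, that rise and the difference between the hormones both lost their calls. The rise of Acly with FGF15 held its call under all 17 alternatives, with log2 changes from 0.37 to 0.75. The dicarboxylate carrier Slc25a10 rose with FGF19 (0.50 ± 0.07, limma adjusted p = 0.000885) and had 0.18 ± 0.07 with FGF15, and the difference of 0.32 ± 0.07 (limma adjusted p = 0.0238) lost its call without any one array. Got1, the cytosolic aspartate aminotransferase, fell with both, with -0.32 ± 0.08 with FGF19 and -0.53 ± 0.08 with FGF15 (limma adjusted p = 0.0243 and adjusted p = 0.00192). Its fall with FGF19 lost its call without either vehicle array or without FGF19 replicate 1.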
